A study of Mus musculus with 18 samples.

Results

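Replication-dependent histone genes are the clustered genes for the linker histone H1 and the core histones H2A, H2B, H3 and H4. The members were all mouse genes with the symbols H1f1 to H1f5, H2ac, H2bc, H3c or H4c and a number, or with an older Hist1h, Hist2h, Hist3h or Hist4h symbol, to which the accession of a probe led in RefSeq. RefSeq listed 71 such genes, of which 64 were on the array, each with 1 probe, among 37246 probes in all. By class these were 6 H1, 17 H2A, 17 H2B, 12 H3 and 12 H4 genes. The genes H2ac14, H2ac23, H2ac5-ps, H2af-ps2, H2bu1-ps, H4bc24 and H4c17 had no probe.

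The study asked how the response to ionizing radiation (IR) differs between stem cells and isogenic differentiated cells. RNA of 18 samples in 6 groups of 3 was measured on Agilent one-color arrays, 1 sample to an array. ES cells were early passage mouse embryonic stem cells from blastocysts, grown on gelatin with leukemia inhibitory factor (LIF) and without feeder cells. ED cells were differentiated from them without direction by withdrawal of LIF, and of beta-mercaptoethanol per the study's methods, until stem cell markers were lost. Both were left unirradiated (ES and ED), or were irradiated with 10 Gy and collected after 15 min (named ESRE for ES and EDRE for ED cells) or after 4 h (named ESRL and EDRL). The labels name no strain, genotype or transgene. They call the 3 samples of a group triplicates without naming separate cultures, so that the p-values measure the spread between these samples, which may be technical.

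Dividing cells make most of their histone protein in S phase, when new DNA has to be packed into nucleosomes. The core histones form the nucleosome and H1 binds the DNA between nucleosomes. Transcripts of the clustered genes usually end in a stem-loop in place of a poly(A) tail, a stem-loop binding protein (Slbp) and the U7 particle make that end, and Npat drives their transcription at the gene clusters. Replication-independent variants such as H1f0, H2az1 and H3f3b are encoded elsewhere by polyadenylated transcripts. The labeling kit used here primes from poly(A) tails, so the signals of the clustered genes may reflect the tailed share of their transcripts, which was not tested. Many of these genes have near-identical paralogs, and probe sequences were not used here, so the signal of 1 probe may include transcripts of several genes.

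Promoters were available in the RefSeq table (GRCm38.p6) for 62 of the 71 genes. The windows from 250 bases before to 50 bases after the start were searched on both strands for the octamer ATTTGCAT, for CCAAT, for TATAAA and for the E2F form TTTNNCGC. The octamer was in 13 of the 62 windows (21.0%, against 1.75% of all 27025 promoters of that length), CCAAT in 53 (85.5% against 37.9%), TATAAA in 35 (56.5% against 14.2%) and the E2F form in 19 (30.6% against 5.27%). The 13 octamers were in 7 H2A and 6 H2B windows, on the reverse strand in the H2A and on the forward strand in the H2B windows, and none was in the H1, H3 or H4 windows. Windows of divergent neighbors overlap, so that these 13 matches are 10 distinct sites in the genome. CCAAT was in every H1, H2A, H2B and H3 window but in 3 of 12 H4 windows. The 150 bases before the start follow for the genes on which the results turn, 5′ to 3′ on the strand of the gene, with every match to these motifs in capitals (ATTGG and TTTATA are CCAAT and TATAAA read on the other strand). They show an H1 gene that fell and one that rose, both with CCAAT, H2B genes next to a divergent H2A gene, and H4 promoters with and without CCAAT.
H1f1 (lower in ED cells, chr13:23763518-23763667, + strand): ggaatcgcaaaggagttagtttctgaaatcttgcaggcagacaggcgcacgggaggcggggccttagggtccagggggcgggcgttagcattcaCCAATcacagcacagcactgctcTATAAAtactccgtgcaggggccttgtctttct
H1f2 (higher in ED cells, chr13:23738657-23738806, + strand): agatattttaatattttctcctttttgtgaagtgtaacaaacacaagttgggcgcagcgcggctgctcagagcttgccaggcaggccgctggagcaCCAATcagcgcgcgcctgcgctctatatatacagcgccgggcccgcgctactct
H2bc11 (lower, as is its divergent neighbour H2ac11, chr13:22043048-22043197, + strand): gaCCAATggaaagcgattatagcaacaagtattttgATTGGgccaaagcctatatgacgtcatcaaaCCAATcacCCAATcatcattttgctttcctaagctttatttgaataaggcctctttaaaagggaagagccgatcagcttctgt
H2bc12 (called lower, its divergent neighbour H2ac12 not called, chr13:22035671-22035820, + strand): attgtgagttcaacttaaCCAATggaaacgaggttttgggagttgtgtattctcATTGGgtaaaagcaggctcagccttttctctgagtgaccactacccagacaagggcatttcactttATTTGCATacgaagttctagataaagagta
H2bu2 (largest fall, chr11:58948761-58948910, + strand): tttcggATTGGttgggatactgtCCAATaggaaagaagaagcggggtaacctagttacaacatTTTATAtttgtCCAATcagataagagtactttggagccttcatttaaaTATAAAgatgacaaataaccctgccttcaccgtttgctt
H2bc23 (higher in ED cells and lower in EDRL than in ED cells, chr13:21810200-21810349, - strand): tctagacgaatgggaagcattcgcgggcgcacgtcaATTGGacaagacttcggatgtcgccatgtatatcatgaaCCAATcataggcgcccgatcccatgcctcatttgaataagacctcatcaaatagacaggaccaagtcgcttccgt
H3c10 (lower in ED cells, chr13:21717478-21717627, + strand): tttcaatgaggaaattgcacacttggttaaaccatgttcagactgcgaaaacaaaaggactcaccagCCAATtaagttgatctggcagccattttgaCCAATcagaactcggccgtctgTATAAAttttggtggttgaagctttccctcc
H4c4 (lower in ED cells, chr13:23581418-23581567, + strand): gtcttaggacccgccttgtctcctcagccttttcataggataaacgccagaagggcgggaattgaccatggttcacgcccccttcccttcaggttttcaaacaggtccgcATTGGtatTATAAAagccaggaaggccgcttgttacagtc
H4c12 (lower in ED cells, chr13:21750554-21750703, - strand): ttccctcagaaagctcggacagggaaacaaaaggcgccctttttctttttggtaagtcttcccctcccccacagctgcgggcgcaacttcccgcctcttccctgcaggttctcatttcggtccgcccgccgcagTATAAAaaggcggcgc

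Signals were put on the log2 scale relative to the 75th percentile of each array, so that 0 is the brightness of that percentile, and all levels below are on this scale. A probe entered the test of 2 groups where 1 of them had it well above background on each of its 3 arrays, and was called where the limma adjusted p was under 0.05 and the log2 change over 1. No member spot was saturated, and an array had from 43 to 62 of the 64 probes well above background. Replicates 2 and 3 of EDRE were dim (75th percentile 875 and 1155, against 1952 on ESRL replicate 1 and 2806 to 4268 on the others). On these 2 arrays 23 and 21 of the 64 member spots were marked as outliers and left out, against 0 to 3 on the other arrays. The arrays had 6 scan times. The stem cell markers fell in ED cells for 8 of 9 genes tested (summed signal of 583 to 588 times the 75th percentile in ES and 17.6 to 23.3 in ED), and 7 of 8 mesenchymal genes were higher and Thy1 lower (8.22 to 9.5 against 186 to 213). Endoderm genes were lower for 3 of 4 (2.71 to 2.86 against 1.13 to 1.18) and trophoblast genes for 4 of 4 (13.1 to 15 against 0.119 to 0.17). The neuroectoderm genes were lower for 1 of 4 (4.09 to 4.83 against 4.58 to 6.18). Of these probes, 1 stem cell, 1 mesenchymal, 1 endoderm and 2 trophoblast probes were well above background on no ED array. The part of these cell types in the results below was not tested, and fewer cells of a type and less RNA per cell cannot be told apart in such samples.

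The first comparison asked how unirradiated ED cells differ from ES cells. Most H4 genes, 3 of the H1 genes and the H3 genes H3c3, H3c10, H3c8, H3c11 and H3c7 were lower in ED cells, while the H1 genes H1f2 and H1f3, the H3 gene H3c15 and the H2B gene H2bc23 were higher. Of 60 member probes tested, 28 were lower and 4 higher, which is 46.7% and 6.67%, against 26.6% and 15.1% of the 28636 probes tested on the array (41.7% called in all). The median log2 change of the members was -0.86, and that of all probes tested -0.19. The split depends on the scaling. With each array set to its median, all probes had a median change of 0.46 and the members one of -0.22, with 16 members lower and 8 higher. Of the 32 calls, 16 were made under each of 5 scalings and background corrections, 14 of them lower and 2 higher, and none was called in the opposite direction under another. With scan time as a random block 16 lower and 2 higher probes were called, 18 of which were called without it. All ES arrays were scanned at the same time and all ED arrays at another. This block therefore cannot separate scan time from cell type in this comparison. The groups did not overlap for 44 of the 54 members measured on all 6 arrays, against 71.2% of all such probes.

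**Figure D1:**
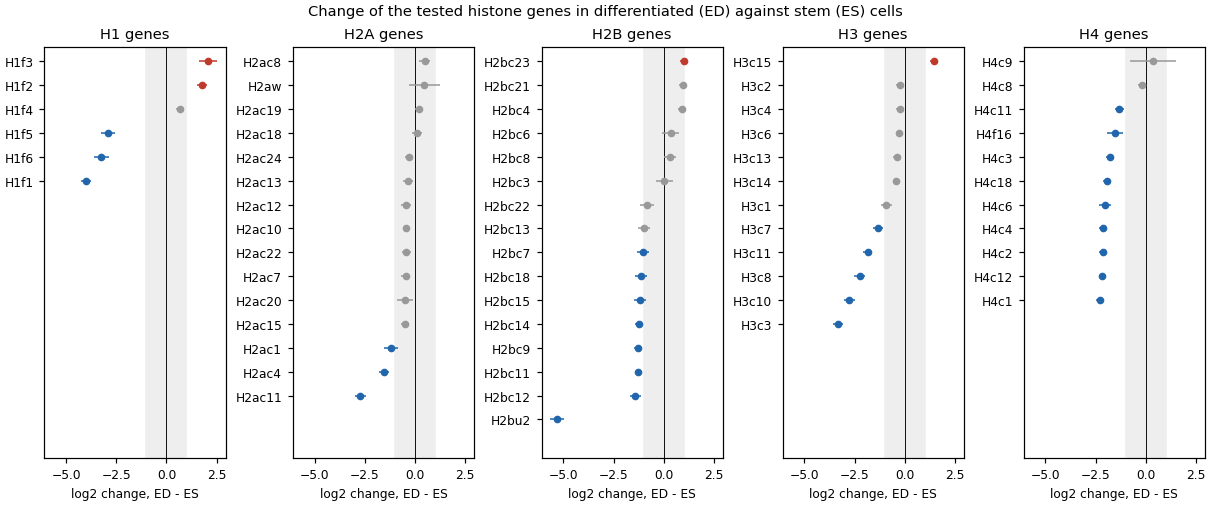
Log2 change in ED against ES cells (x axis) of each of the 60 histone genes tested, by class, with the standard error of the limma fit as bars. Blue points were called lower and red points called higher, gray points were not called, and the gray band spans changes under 1. In H4, 9 of 11 genes were lower, and in H2A 12 of 15 were not called.

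The linker histone genes moved apart. H1f1, a replication-dependent H1 gene, stood at 0.35, 0.16 and 0.14 on the ES arrays and at -3.81, -3.96 and -3.65 on the ED arrays. It was 16.2-fold lower in ED cells, a log2 change of -4.02 ± 0.26 (SE, n = 3 and 3, limma adjusted p = 4.42e-09). The groups are far apart and each is tight, and H1f1 had the second largest fall of all members. H1f5 stood at -3.58, -3.25 and -3.51 in ES cells and at -6.89, -6.03 and -6.18 in ED cells (log2 change -2.92 ± 0.36, limma adjusted p = 7.25e-06), again without overlap. With scan time as a random block its call was lost (log2 change -2.61, adjusted p = 0.0801). H1f6, the testis H1 gene, was at -5.82, -5.86 and -5.74 in ES cells and well above background on 0 of 3 ED arrays, so that it was at least 3.11-fold lower in ED cells (limma adjusted p = 2.03e-06).

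H1f2 moved the other way. It stood at 1.23 and 1.16 on the 2 ES arrays with a usable spot and at 2.90, 3.21 and 2.80 on the ED arrays, which is 3.42-fold higher in ED cells (log2 change 1.77 ± 0.26, limma adjusted p = 7.95e-05). H1f3 was well above background on 0 of 3 ES arrays and on all ED arrays, where it stood at -6.12, -7.00 and -7.00, at least 2.18-fold higher (limma adjusted p = 0.00132). This call was not made with normexp (log2 change 0.34), with scan time as a random block (adjusted p = 0.402) or by the methods' t-test (adjusted p = 0.0667), and that of H1f6 was not made with normexp (log2 change -0.78). H1f4 was at -4.66, -4.87 and -4.91 in ES cells and at -4.12, -4.20 and -4.13 in ED cells. The groups did not overlap and the adjusted p was 0.00457, but the log2 change of 0.66 ± 0.17 was under the limit. H1f3 and H1f6 entered the test only through the group in which they were bright, and their p-values belong to the fitted changes, not to the bounds. Of the 4 H1 genes that were well above background on each of the 6 arrays, 2 were lower and 1 was higher.

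**Figure D2:**
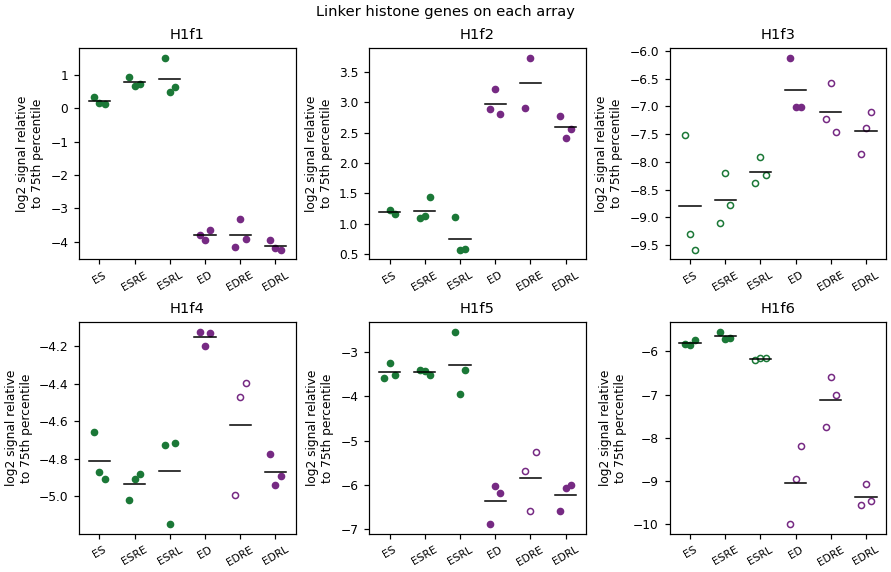
Log2 signal over the array's 75th percentile (y axis) of the 6 H1 genes on each array of the 6 groups (x axis). Points are arrays (green ES, purple ED), open where the probe was well above background on fewer than 3 arrays of the group, and lines are means. H1f1 lies between 0.14 and 1.52 on the ES, ESRE and ESRL arrays and between -4.24 and -3.31 on the others, and H1f2 is higher in every ED group than in every ES group.

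H4 was the class with the most falls, 9 of 11 probes tested, and its median change was -1.93. This median was below 0 under each scaling, -1.29 with each array set to its median, where 7 H4 genes were lower, and -1.80 with scan time as a random block, where 6 were. H4c1 stood at -2.08, -2.01 and -1.86 in ES cells and at -4.52, -4.30 and -3.98 in ED cells (log2 change -2.28 ± 0.20, limma adjusted p = 1.71e-07). H4c12 stood at -2.67, -2.50 and -2.68 against -4.82, -4.63 and -4.87, and H4c4 at 2.13, 1.93 and 2.03 against 0.12, -0.48 and 0.08. In each of these genes every ES array was higher than every ED array. H4c2, H4c6, H4c18, H4c3, H4f16 and H4c11 fell too, by 2.14, 2.05, 1.93, 1.80, 1.52 and 1.30 on the log2 scale. H4c8 (log2 change -0.17, adjusted p = 0.539) was not called. H4c9 was measured on 1 ES array (0.36 ± 1.15), and H4c14 was too dim to be tested.

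In H3, 5 of 12 genes were lower and 1 was higher, with a class median of -0.66 that was -0.02 with each array set to its median. H3c3 stood at 0.69 and 0.78 on the 2 ES arrays measured and at -2.66, -2.69 and -2.44 on the ED arrays, a log2 change of -3.34 ± 0.25 (limma adjusted p = 5e-08). H3c10 went from 0.70, 0.59 and 0.86 to -2.15, -2.08 and -1.87, and H3c8 from -0.29, -0.41 and -0.36 to -2.81, -2.92 and -2.08. H3c11 and H3c7 were lower by smaller amounts (log2 changes of -1.83 and -1.32). H3c15 was higher, at -3.78, -4.02 and -3.94 in ES cells against -2.43, -2.51 and -2.41 in ED cells (log2 change 1.46 ± 0.20, limma adjusted p = 1.45e-05). The probes of H3c2, H3c4, H3c6, H3c13 and H3c14 were bright, with means between 5.19 and 5.83 in ES cells, and changed by -0.42 to -0.25, none of which was called.

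In H2B, 8 of 16 probes tested were lower and 1 was higher. H2bu2 had the largest fall of all members, from -0.26, -0.39 and -0.29 in ES cells to -6.24, -5.40 and -5.30 in ED cells, 40.4-fold (log2 change -5.34 ± 0.35, limma adjusted p = 5.18e-09). The groups are separated by more than any difference within them. H2bc12, H2bc11, H2bc9, H2bc14, H2bc15, H2bc18 and H2bc7 were lower by similar amounts, with log2 changes from -1.41 to -1.05. These 7 falls were near the limit, and with each array set to its median 1 H2B gene was lower and 3 were higher. With scan time as a random block 2 H2B genes were lower and none was higher. H2bc23 was at -2.58, -2.46 and -2.75 in ES cells and at -1.51, -1.62 and -1.60 in ED cells (log2 change 1.02 ± 0.20, limma adjusted p = 0.000669), and its change fell under 1 without ES replicate 3 (0.94) or ED replicate 1 (0.99), with normexp (0.89) and with scan time as a random block (0.74). H2bc21 and H2bc4 had changes of 0.95 and 0.92 with adjusted p of 0.00143 and 0.000848, under the limit.

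In H2A 3 of 15 probes tested were lower and none was higher. H2ac11 went from 1.31, 1.16 and 1.22 in ES cells to -1.42, -1.71 and -1.40 in ED cells (log2 change -2.74 ± 0.28, limma adjusted p = 1.31e-06). H2ac4 and H2ac1 had log2 changes of -1.55 and -1.18, and H2ac1 was well above background on 1 of 3 ED arrays. The 8 bright H2A probes, of H2ac7, H2ac10, H2ac12, H2ac13, H2ac15, H2ac20, H2ac22 and H2ac24, had means between 6.33 and 6.59 in ES cells and changed by -0.50 to -0.30. The H2A median was -0.42, and it turned to 0.22 with each array set to its median.

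Among the genes with a promoter in the table, 10 divergent pairs had starts less than 1000 bases apart. In 7 of them both genes were tested, and in 1 both were called, H2ac11 (-2.74) with H2bc11 (-1.29), whose starts are 249 bases apart. The H2B gene was called lower and the H2A gene was not in 3 pairs, H2bc12 (-1.41) with H2ac12 (-0.42), H2bc15 (-1.17) with H2ac15 (-0.50), and H2bc7 (-1.05) with H2ac7 (-0.47). The other 3 pairs, H2bc13 with H2ac13, H2bc22 with H2ac22 and H2bc8 with H2ac8, had no call. H2ac11 was called under each of the 5 scalings and background corrections, while H2bc11, H2bc12, H2bc15 and H2bc7 were not. The difference within a pair was not tested, since signals of different probes are not compared. CCAAT was in 21 of 27 promoters of genes that were lower, in 4 of 4 that were higher and in 23 of 25 that were not called. All lower and uncalled genes without it were H4 genes, so that this split cannot be told apart from that of the classes.

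Genes that act on histones were described beside the members. Among genes for transcription and 3′ processing of histone mRNA, 17 were tested. Of these, 3 were lower and none higher, beside 26.6% and 15.1% of all probes tested. The median log2 change over the probes of this list was -0.47. The lower genes were Zfp473 (-4.19), Mif4gd (-1.60) and Coil (-1.33). Zfp473 links Slbp to the U7 particle, Mif4gd acts in translation of histone mRNA and Coil is a Cajal body protein. Each of the 3 was measured on 1 ES array, and no gene of the list measured on all 6 arrays was called. Npat stood at -0.70, -0.67 and -0.60 in ES cells and at -0.94, -1.49 and -1.39 in ED cells (log2 change -0.62, limma adjusted p = 0.189). For Slbp every ES spot was marked as an outlier. Casp8ap2, Eri1, Lsm10 and Lsm11 were not called.

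Of 17 histone chaperone and modifier genes tested, 4 were lower and 1 higher, beside 26.6% and 15.1% of all probes tested. Nasp, a chaperone of H3 and H4, stood at 3.21, 3.18 and 3.29 in ES cells and at 0.42, 0.41 and 0.52 in ED cells by its second probe, and its 2 probes gave log2 changes of -2.92 and -2.78 (limma adjusted p = 9.46e-09 and 9.54e-10). Hat1, which acetylates new H4, was lower (-2.75), as were Chaf1b of the replication-coupled assembly factor CAF-1 (-1.98) and Daxx, a chaperone of H3.3 (-1.38). Asf1a was higher (1.29), while Chaf1a (-0.43, adjusted p = 0.089) and Asf1b (0.19, adjusted p = 0.586) were not called.

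Among 8 replication-independent histone genes tested, 2 were higher and none lower, beside 15.1% and 26.6% of all probes tested. Their median change was 0.00. H1f0, the linker histone of cells that leave the cycle, stood at 0.65 and 0.73 on the 2 ES arrays measured and at 3.62, 3.52 and 3.42 in ED cells (log2 change 2.83 ± 0.18, limma adjusted p = 7.6e-08), and Macroh2a2 was higher by 1.51. H2az1 and H3f3b changed by 0.11 and -0.08 and were not called. Of 21 S phase genes tested, 2 were lower (Ccne1, -3.27, and Mcm2, -1.08) and 2 higher (Ccne2, 1.93, and Mki67, 1.02), with a median of 0.30 over their probes. These counts stand beside 26.6% lower and 15.1% higher among all probes tested. Mcm2 and Mki67 were near the limit, and neither of these lists was counted under other scalings.

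The next comparisons asked what 10 Gy changed in ES cells. At 15 min no member of 58 tested was called, against 0.463% of the 27875 probes tested, and by limma 9 members (15.5%) had an unadjusted p under 0.05, against 9.45% of all probes. By the methods' t-test with adjustment 1 member was called higher. The changes were small, with a median of 0.25, against -0.075 for all probes, and 51 of the 58 were positive. H4 had the largest class median, 0.50, and all 11 H4 probes had positive changes (0.18 to 1.49), a sign they also had under every scaling. The top of this range, 1.49, was H4c9, which was measured on 1 ES array. For the 8 H4 probes measured on all arrays compared, the median was 0.47. H4c2 stood at -2.39, -2.45 and -2.47 in ES and at -1.77, -1.96 and -1.85 in ESRE cells without overlap (log2 change 0.57 ± 0.17), with a limma adjusted p of 0.206. The groups did not overlap for 23 of 51 members measured on all arrays, against 35% of all such probes.

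At 4 h, 1 of 58 members was called, against 7.03% of all probes tested (0.69% higher and 6.34% lower). It was H2bc3, an H2B gene, at -5.04, -4.16 and -4.17 in ES cells and at -8.03, -6.07 and -6.72 in ESRL cells (log2 change -2.48 ± 0.38, limma adjusted p = 0.0023), where it was well above background on 2 of 3 arrays. Without ESRL replicate 1, which had the lowest value, the call was kept with 1 member more, and it was not made with normexp (log2 change -1.11), with scan time as a random block or by the methods' t-test (adjusted p = 0.199). Without ESRL replicate 2, 3 members were higher and 2 lower. H2bc23 was at -3.74, -3.20 and -3.75 in ESRL cells, below each ES array (log2 change -0.97 ± 0.20, adjusted p = 0.0107, under the limit). H2ac4 had a change of 0.95 (adjusted p = 0.0471) on 2 ESRL arrays. All 11 H4 probes again had positive changes in ESRL cells, with a median of 0.43. For the 10 of them measured on all arrays compared, the median was 0.42. In H2A, 10 of 14 probes had negative changes (median -0.29). The H2A median turned to 0.02 with each array set to its median. ESRE and ESRL were set against the same 3 ES arrays. The replication-independent H1f0 fell, from 0.65 and 0.73 in ES cells to -0.47, -0.20 and -0.28 in ESRL cells (2.005-fold, limma adjusted p = 0.00771), a call that 7 of the other settings and the loss of any of 3 single arrays ended.

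**Figure D3:**
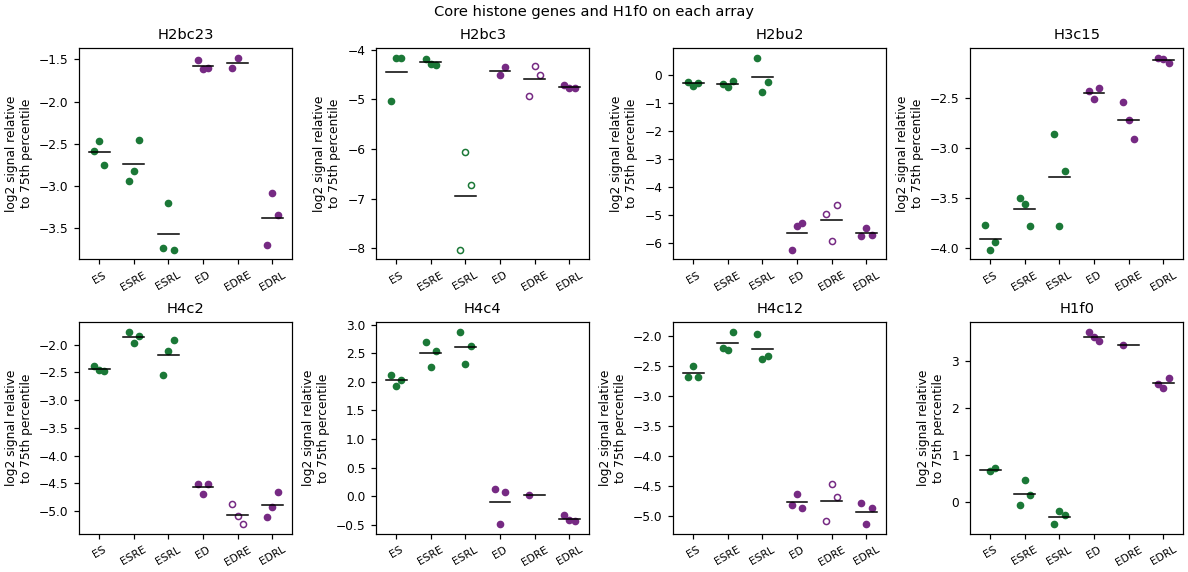
Log2 signal over the array's 75th percentile (y axis) of 7 core histone genes and of H1f0 on each array of the 6 groups (x axis), with colors, open points and lines as in the plot of the H1 genes and a separate y range for each gene. H2bc23 is lowest in the ESRL and EDRL groups, between -3.75 and -3.09, and H2bu2, H4c2, H4c4 and H4c12 are lower on each ED, EDRE and EDRL array than on any ES, ESRE or ESRL array.

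In ED cells 15 min after IR, 6 of 58 members were called lower and none higher, against 2.74% and 2.1% of the 24490 probes tested (4.84% in all). All 6 are H2A genes, and 5 of them had 1 usable EDRE array, so that nothing is read from this count. H2ac19, measured on all arrays, stood at -2.07, -1.85 and -2.22 in ED cells and at -2.81, -3.36 and -3.66 in EDRE cells, with no overlap (log2 change -1.23 ± 0.20, limma adjusted p = 0.00509). The other calls, of H2ac22 (-1.44), H2ac15 (-1.33), H2ac10 (-1.23), H2ac7 (-1.18) and H2ac24 (-1.14), rest on EDRE replicate 1, since their spots on replicates 2 and 3 were marked as outliers. H2ac10, for example, stood at 5.93, 6.05 and 6.10 in ED cells and at 4.80 on EDRE replicate 1.

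The arrays of EDRE differed in this class. H2ac20 was measured on all 3 and stood at 4.76, 6.21 and 6.68, below the ED arrays (5.38, 5.83 and 6.29) on replicate 1 and within or above them on the others. H2ac13 stood at 5.31 on replicate 1 and at 6.42 on replicate 3. With the marked spots kept, H2ac10 had 4.55 and 5.55 and H2ac7 6.68 and 5.02 on replicates 2 and 3. Without replicate 1, 2 members were lower and 6 higher of 41 tested, and with probes measured on every array H2ac19 alone was called, of 30. With replicates 2 and 3 left out, the change of H2ac19 was -0.76 (adjusted p = 0.0785). Under normexp, where the median of all probes was 0.59, 12 members were higher, none of them H2A genes, and 6 H2A genes were lower. H2ac19 was not among those 6 (log2 change -0.42, limma adjusted p = 0.0986). With scan time as a random block no member was called. There, by limma, 8 of 58 (13.8%) had an unadjusted p under 0.05, against 4.26% of all probes. Without ED replicate 2 or ED replicate 3, 3 members were lower.

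**Figure D4:**
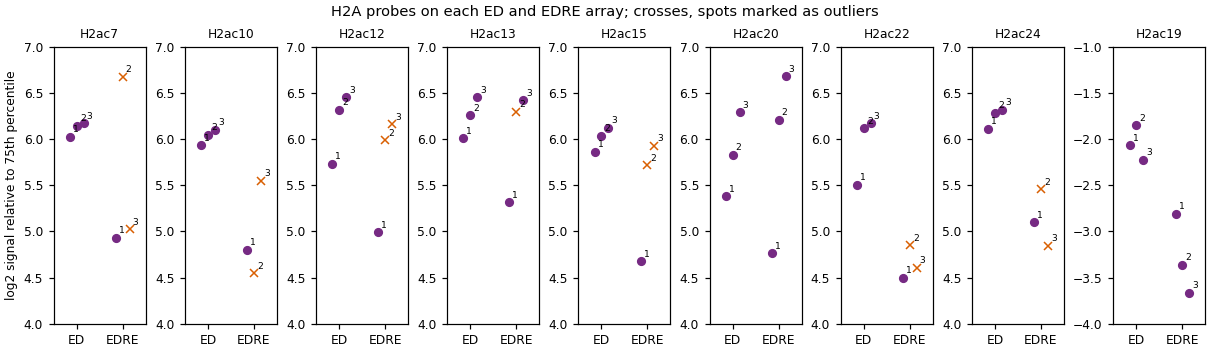
Log2 signal over the array's 75th percentile (y axis) of the 8 bright H2A probes and of H2ac19 (own y range) on each ED and EDRE array. Points are spots used, crosses are spots that were marked as outliers and left out, and the small numbers give the replicate. For H2ac7, H2ac10, H2ac12, H2ac15, H2ac22 and H2ac24 the value of EDRE rests on replicate 1, and for H2ac19 all 3 EDRE arrays are below the ED arrays.

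At 4 h in ED cells 1 of 58 members was called lower and none higher, against 0.236% and 1.38% of the 25412 probes tested (1.61% in all). It was H2bc23, at -1.51, -1.62 and -1.60 in ED cells and at -3.70, -3.09 and -3.34 in EDRL cells, 3.48-fold lower (log2 change -1.80 ± 0.20, limma adjusted p = 0.000141). The groups are far apart, the call was made without any 1 of the 6 arrays, and it was lost with scan time as a random block (log2 change -1.47, adjusted p = 0.817). H1f4 stood at -4.12, -4.20 and -4.13 against -4.77, -4.94 and -4.89 (log2 change -0.72, adjusted p = 0.0362). H4c11 entered the test only through ED cells, where it was bright. It was well above background on 0 of 3 EDRL arrays and at least 1.48-fold lower, a bound that was not tested. Its fitted change of -0.975 (limma adjusted p = 0.0416) was under the limit and used values near background. The median of the members was -0.27, against -0.09 for all probes, and 45 of 58 changes were negative, among them 10 of 11 H4 and 13 of 16 H2B probes. H1f0 went from 3.62, 3.52 and 3.42 to 2.51, 2.43 and 2.64 (log2 change -0.99 ± 0.16, adjusted p = 0.00629), just under the limit. The groups did not overlap for 27 of 56 members, against 44.6% of all such probes.

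**Figure D5:**
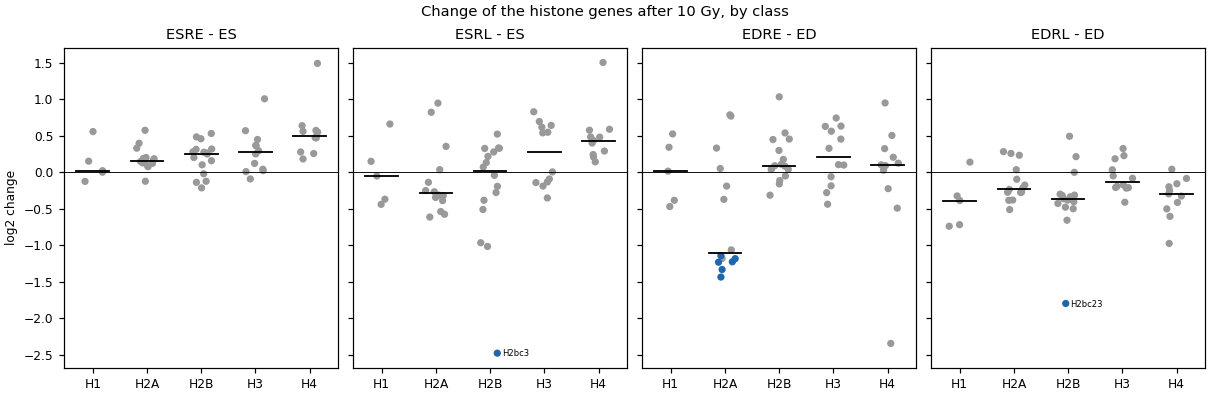
Log2 change after 10 Gy (y axis) of the histone genes tested, by class (x axis), in each of the 4 comparisons with unirradiated cells of the same type. Points are genes, blue where called, and lines are class medians. The called genes are H2bc3 in ESRL, H2bc23 in EDRL and 6 H2A genes in EDRE, and the H4 points lie above 0 in ESRE and ESRL.

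The last comparisons asked whether the change after IR differed between ES and ED cells, as the change in ES minus that in ED cells. At 15 min, 4 of 60 members passed the test, all more positive in ES cells, against 0.811% of the 28098 probes tested in that direction (1.98% in all). H2ac19 had a difference of 1.42 ± 0.28 (limma adjusted p = 0.0231) and H4c2 one of 1.07 ± 0.25 (adjusted p = 0.0451). The ESRE arrays of H4c2 stood between -1.96 and -1.77, while its EDRE arrays stood at -4.87, -5.08 and -5.23 against -4.51, -4.70 and -4.51 in ED cells, with EDRE well above background on 1 of 3 arrays. The differences of H2ac15 (1.46, adjusted p = 0.038) and H2ac10 (1.41, adjusted p = 0.0236) rest on EDRE replicate 1. The call of H2ac19 was lost without any 1 of the 3 ES arrays, ESRE replicate 1 or 3, or ED replicate 2 (limma adjusted p from 0.0523 to 0.0677), and that of H4c2 without any 1 array other than EDRE replicate 1 (0.0732 to 0.111). No member differed without ESRE replicate 1 or ESRE replicate 3, 2 did without ESRE replicate 2 and 8 without EDRE replicate 1, and none did with normexp, quantile normalization, scan time as a random block, the deposited log2 values or each array set to its median. At 4 h no member of 60 differed, against 0.229% of the 28375 probes tested that were more positive in ES cells (1.09% in all), and 16 (26.7%) had an unadjusted p under 0.05, against 15.2% of all probes. The H4 probes had a median difference of 0.71, with all 11 more positive in ES cells. For the 10 of them measured on all arrays compared, the median difference was 0.64. H4c11 had a difference of 1.46 ± 0.33 (limma adjusted p = 0.0553). H4c11 was well above background on no EDRL array, so that its difference rests on values near background. Without ESRL replicate 2, 5 members differed. The change of H2bc23 at 4 h was -0.97 in ES and -1.80 in ED cells, a difference of 0.83 ± 0.28 that did not pass the test (adjusted p = 0.188).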

How the data were processed

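RNA of 18 samples was labeled with Cy3 and hybridized to Agilent one-color arrays. The deposited files hold processed intensity per spot, which the authors' scanner software (Feature Extraction 9.1 per the labels, 10.7.3.1 per the file headers) had corrected for background, and a deposited series table holds log2 values, whose centering is not stated. Intensities were divided by the 75th percentile of each array and put on the log2 scale here. Control spots and spots marked as outliers were left out. Accessions were named through RefSeq (22216 of 37246 probes). Comparisons used linear models with moderated variance (limma 3.58.1 in R 4.3.3) over all probes tested, with Benjamini-Hochberg adjustment. A missing spot was dropped from the fit of its probe. Scripts were tested on simulated data. Named genes were, among called members measured on all arrays, up to 8 with the largest rise and 8 with the largest fall in ED against ES and up to 4 each way elsewhere, the H1 genes and fixed genes outside the clusters. Other genes named were chosen after their values were seen. The members and lists were chosen with earlier results of these data known. Alternatives covered the background correction (normexp), scaling, filters, scan time as a random block, the replicate block, the methods' t-test and leaving out arrays. No scan time holds a group together with its unirradiated control, or unirradiated ES together with unirradiated ED arrays. None of these comparisons can therefore be made within a scan time. Of the irradiated stem cell arrays, ESRE replicate 3 shared the scan time of the ED arrays. The number of arrays, 3 in each group, limits the precision.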

Additional observations from a re-analysis of the deposited data

Results flagged for a closer look

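In 4 histone genes the difference between ES and ED cells in the change 15 min after IR passed the test, though in none of them with normexp, arrays set to their median, quantile normalization, scan time as a random block or the deposited log2 values. The difference (log2 change in ES minus that in ED cells) was 1.41 for H2ac10, 1.46 for H2ac15, 1.42 for H2ac19 and 1.07 for H4c2. For H2ac10 and H2ac15 it rests on EDRE replicate 1. For H4c2, well above background on 1 of 3 EDRE arrays, it turned to -0.23 with normexp.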

How the results depend on the processing

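The dim EDRE arrays with many marked spots and probes near background limit these results. So do scan times that never hold a group with its unirradiated control, or unirradiated ES with unirradiated ED arrays. In ED against ES cells, higher members (4) numbered 2 with normexp or scan time as a random block, 8 with arrays set to their median or quantile normalization and 9 with the deposited log2 values, and lower members (28) numbered 16 with arrays set to their median, the scan block or the deposited values. Members higher in ESRE (0) numbered 1 by the methods' t-test. In ESRL, higher members (0) numbered 2 with arrays set to their median, 1 with quantile normalization, 1 with outlier spots kept and 3 with the deposited values, and lower members (1) numbered 0 with normexp, the stricter filter on dim probes, the scan block and the t-test. In EDRE, higher members (0) numbered 12 with normexp, 1 with arrays set to their median, 1 without a filter and 2 with the deposited values. Lower members there (6) numbered 1 with arrays set to their median, 0 with the scan block and the t-test, 3 with the deposited values and, in an alternative chosen after seeing the data, 1 with probes measured on every array. The EDRL call (1) was lost with the scan block (0). The 4 differences at 15 min numbered 0 with normexp, arrays set to their median, quantile normalization, the scan block or the deposited values, 2 without a filter, and 2 in each of the alternatives chosen after seeing the data (without EDRE replicates 2 and 3, and probes measured on every array). That of H4c2 reversed to -0.23 with normexp. The cause of these shifts was not tested.

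With single replicates left out, higher members ranged from 3 to 5 and lower ones from 28 to 28 in ED against ES, from 0 to 3 and 1 to 2 in ESRL, from 0 to 6 and 2 to 6 in EDRE, and from 1 to 1 (lower) in EDRL. Differences ranged from 0 to 8 at 15 min and from 0 to 5 at 4 h. Replicate numbers were not treated as pairs. Of 18 arrays, 4 correlated best with an array of their own number, which cannot exclude a pairing. The replicate block left 1 of the 4 differences at 15 min.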
